A study of Mus musculus with 12 samples.

Results

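Genes of the type I interferon response were followed in mouse lymph node dendritic cells given a TLR2 ligand. The set comprised 31 listed genes: the interferon Ifnb1, transcription factors and RNA sensors of the pathway, and antiviral effectors and regulators. A gene was measured through the probe sets whose only annotated symbol was that gene, and the probe set with the highest mean over the 12 arrays stood for it. By this choice 29 of the 31 genes were measured, and all 29 were among the 12792 genes tested, of 18194 with such a probe set. Isg15 was reached only by a probe set shared with other symbols, and Ifi44 by none, so no values are given for either.

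The cells were primary dendritic cells of C57BL/6 mice, labelled p38a-knockout (KO) or wild type (WT), cultured and then exposed to Pam3CSK4, a synthetic TLR2 ligand built on a lipopeptide, which the labels give at 1 mg/ml, a high dose for this ligand whose unit could not be checked. No ligand had acted on the cells of the 0 h groups. RNA was hybridised at 0, 2 and 4 h to Affymetrix mouse 3' expression arrays, 2 arrays in each of 6 groups. The groups were KO with Pam3CSK4 for 0, 2 and 4 h, and WT with Pam3CSK4 for 0, 2 and 4 h. The labels give neither the promoter of a Cre nor the age of the mice, and whether the 2 arrays per group stand for different mice or different cultures is not stated. All arrays at 2 and 4 h carried the ligand, so an effect of Pam3CSK4 and one of time in culture cannot be told apart.

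Type I interferons signal through the IFNAR1 and IFNAR2 receptor chains and the kinases JAK1 and TYK2, which phosphorylate STAT2. STAT2 and IRF9 are subunits of the ISGF3 complex, which binds the interferon-stimulated response element in the promoters of antiviral genes. In dendritic cells Ifnb1 is switched on mainly by sensors that reach IRF3 or IRF7, such as TLR4, TLR9 and the cytosolic nucleic acid sensors, whereas TLR2 at the cell surface signals through MyD88 and is known chiefly for NF-kB targets. p38alpha, encoded by Mapk14, is a stress-activated kinase downstream of these receptors.

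The deposited MAS5 intensities had trimmed means of 66.6 to 119 per array, a range of 1.79-fold, and were set to one distribution before testing. Levels are given below as log2(signal + 16), a difference is the first group minus the second on that scale with its standard error from limma, and a gene was called at a Benjamini-Hochberg adjusted p under 0.05 over all 12792 genes. Mapk14, the targeted gene, read 8.37 and 8.37 in KO before the ligand, 8.05 and 8.07 after 2 h and 8.04 and 7.93 after 4 h, against 8.41 and 8.02, 7.76 and 7.44, and 7.56 and 7.75 in WT. Its probe set was thus not lower in the arrays labelled KO (0.31 ± 0.076 above WT averaged over the times, adjusted p = 0.0138). Whether it lies in the deleted part is not given in the sources used here, so it does not check the labels, and KO and WT below mean the arrays labelled so. All 8 dendritic cell markers listed, among them Itgax, Flt3 and Zbtb46, were above the filter on low values (4.73). So were all 7 macrophage and monocyte markers and all 7 NK cell markers on the array, so passing the filter does not identify the cells. Tnf was higher at 2 h than at 0 h by 3.82 ± 0.13 in KO and 3.62 ± 0.13 in WT, and Ifng was higher at 4 h than at 0 h by 5.02 ± 0.11 in KO and 4.80 ± 0.11 in WT.

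Between 0 and 4 h the interferon response genes did not move as a block. Irf1, Isg20, Usp18 and Parp14 rose at 2 h and at 4 h in both genotypes. At 2 h Ifit2, Ifit3, Mx1 and Oasl1 fell in both genotypes, and at 4 h Bst2 and Oasl1 were below 0 h in both. In all, 15 of the 29 genes were not called in any comparison, and no gene of the set differed by 1 or more on the log2 scale in any comparison. Over the 6 comparisons of times 13 of the 29 were called at least once, beside 38.7% of all genes tested.

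Against 0 h, 4 of 29 genes rose and 4 fell at 2 h in KO, where 7.85% of all genes tested rose and 11.7% fell. In WT 4 rose and 6 fell at 2 h, against 8.43% and 11.5% of all genes. At 4 h 4 rose and 2 fell in KO (7.24% and 10.9% of all genes), and 4 rose and 4 fell in WT (8.31% and 9.90%). In either direction the called share of the set was 27.6% in KO and 34.5% in WT at 2 h, beside 19.6% and 19.9% of all genes. At 4 h it was 20.7% in KO and 27.6% in WT, beside 18.1% and 18.2%, so in KO the share at 4 h was near that of all genes. The 2 h and 4 h comparisons of a genotype share its 0 h arrays.

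Typical changes within the set were small. The median difference of the 29 genes at 2 h was 0.06 in KO and -0.01 in WT, beside -0.06 and -0.05 over all genes. At 4 h the medians were 0.10 in KO and -0.03 in WT, beside -0.05 and -0.02 over all genes. The median size of change at 2 h, without its sign, was 0.13 in KO and 0.16 in WT for the set, against 0.21 and 0.20 for all genes. Replicate arrays differed less for these probe sets at the median: the median within-group SD was 0.096 for the 29 genes and 0.145 for all genes. The part of signal level in this was not tested.

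**Figure D1:**
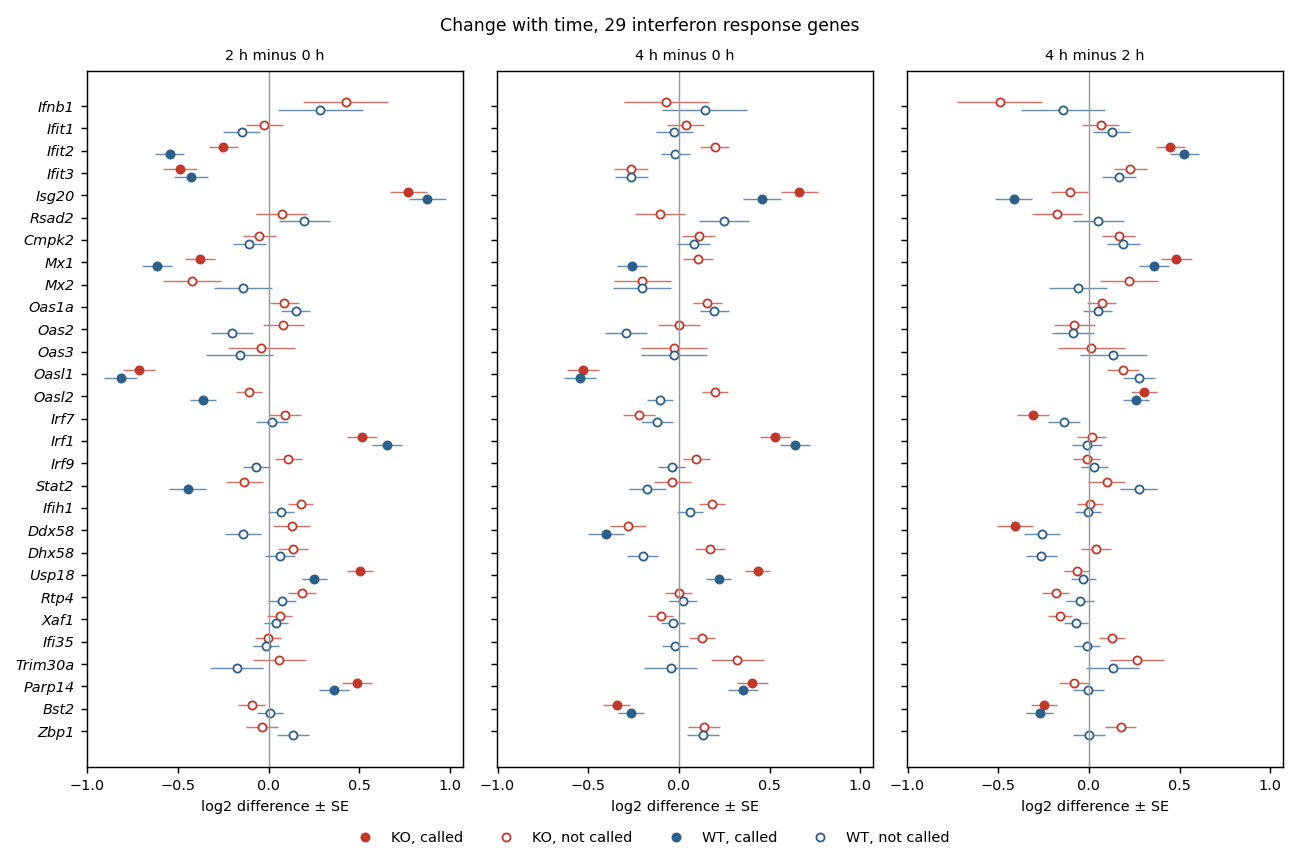
Log2 differences with time (± standard error of the limma fit, 2 arrays per group) of the 29 interferon response genes, KO in red and WT in blue, with 2 h minus 0 h, 4 h minus 0 h and 4 h minus 2 h from left to right. Filled points passed an adjusted p under 0.05. Isg20, Irf1, Usp18 and Parp14 lie to the right of 0 in the first 2 panels in both genotypes, Oasl1 to the left.

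**Figure D2:**
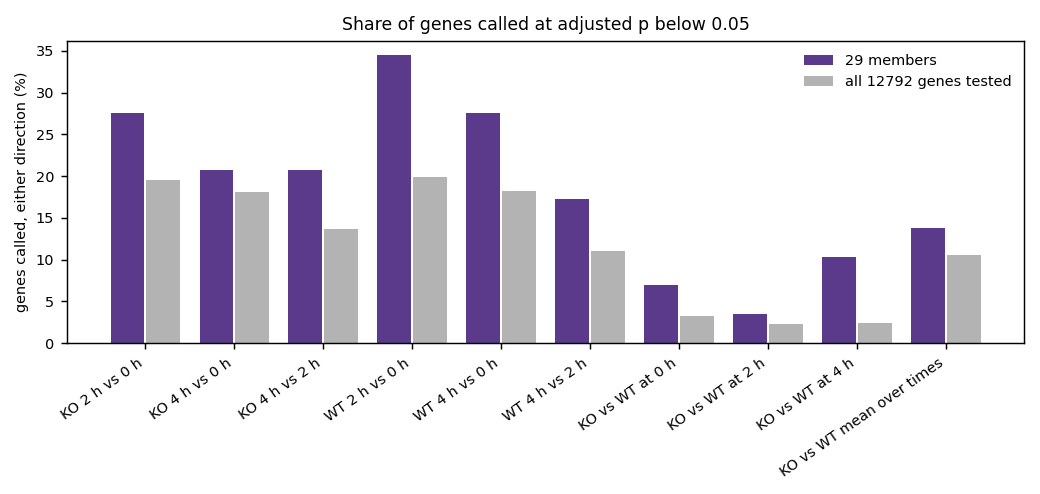
Share of genes called (%, either direction) in each of 10 comparisons, for the 29 interferon response genes (purple) and all 12792 genes tested (grey). The bars of the set reach 34.5% for WT at 2 h against 0 h, beside 19.9% of all genes, and 3.45% for KO against WT at 2 h, beside 2.3% of all genes.

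Ifnb1, the ligand at the head of the pathway, stayed near the filter level of 4.73, between 4.58 and 5.38 on the 12 arrays. In KO it read 5.11 and 4.70 before the ligand, 5.28 and 5.38 after 2 h and 5.10 and 4.58 after 4 h. In WT it read 4.80 and 4.82 before the ligand, 5.22 and 4.98 after 2 h and 4.81 and 5.10 after 4 h. Both 2 h arrays of each genotype lay above both of its 0 h arrays, while the 4 h arrays of KO lay on either side of the filter level. The difference at 2 h against 0 h was 0.42 ± 0.23 in KO (95% interval -0.07 to 0.92, adjusted p = 0.237) and 0.28 ± 0.23 in WT (-0.21 to 0.78, adjusted p = 0.467). At 4 h against 0 h it was -0.07 ± 0.23 in KO and 0.14 ± 0.23 in WT, neither called. Of the 12 type I and III interferon genes listed, Ifnb1 included, 7 were on the array. Only Ifnb1, Ifna1 and Ifnz passed the filter, with 0 of the 3 called by limma in any comparison and 0 at an unadjusted p under 0.05.

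The RefSeq promoter of Ifnb1 (GRCm38.p6 chr4:88522745-88523044, minus strand, 250 bases before the start to 50 from it on) is shown because it holds the NF-kB letters GGGANNTTCC (GGAANNTCCC on the other strand), in capitals here, 116 bases upstream of the start. The same letters stood in 1.47% of all 32851 promoters of that length.
Ifnb1 promoter: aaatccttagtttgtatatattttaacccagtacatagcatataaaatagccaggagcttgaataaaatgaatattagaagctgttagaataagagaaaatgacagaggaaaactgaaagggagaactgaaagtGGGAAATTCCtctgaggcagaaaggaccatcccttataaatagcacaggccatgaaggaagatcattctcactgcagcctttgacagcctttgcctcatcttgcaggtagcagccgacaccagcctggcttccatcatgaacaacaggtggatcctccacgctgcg

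Of the 4 transcription factors, Irf1 alone passed the test for a rise. Irf1, a factor induced by interferons and NF-kB that drives antigen presentation and antiviral genes, read 11.56 and 11.69 in KO before the ligand, 12.21 and 12.07 after 2 h and 12.22 and 12.09 after 4 h. WT arrays gave 11.61 and 11.41 before the ligand, 12.19 and 12.13 after 2 h and 12.22 and 12.08 after 4 h. Every 2 h and 4 h array stood above every 0 h array, and the levels at 2 and 4 h overlapped. Relative to 0 h, at 2 h Irf1 was 1.43-fold higher in KO (0.51 ± 0.081, adjusted p = 0.00028) and 1.57-fold higher in WT (0.65 ± 0.081, adjusted p = 2.5e-05). At 4 h it was 1.44-fold higher in KO (0.53 ± 0.081, adjusted p = 0.000207) and 1.56-fold higher in WT (0.64 ± 0.081, adjusted p = 3.17e-05).

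Stat2, the interferon-specific subunit of ISGF3, fell at 2 h in WT. Its levels in KO were 7.84 and 7.71 before the ligand, 7.55 and 7.72 after 2 h and 7.75 and 7.73 after 4 h. In WT they were 7.95 and 7.94 before the ligand, 7.58 and 7.42 after 2 h and 7.80 and 7.75 after 4 h. The WT arrays at 2 h lay apart from those at 0 h, while the KO arrays at 2 h and 0 h overlapped. At 2 h against 0 h the difference was -0.13 ± 0.10 in KO (adjusted p = 0.408) and -0.45 ± 0.10 in WT (adjusted p = 0.00517). KO and WT responses were not called different by the test of the difference itself (0.31 ± 0.14, adjusted p = 0.831). The other Stat2 probe set also fell in WT (-0.44, adjusted p = 0.0243), and without the WT 2 h array B the difference in WT was -0.37 with an adjusted p of 0.0676.

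Irf7, the factor that amplifies interferon production, read 10.19 and 10.33 in KO before the ligand, 10.38 and 10.32 after 2 h and 10.07 and 10.02 after 4 h. The WT values were 10.30 and 10.10 before the ligand, 10.11 and 10.33 after 2 h and 10.13 and 10.04 after 4 h. It was lower at 4 h than at 2 h in KO (-0.31 ± 0.088, adjusted p = 0.0304). That call was lost when any of the 4 KO arrays at 2 h and 4 h was left out (adjusted p up to 0.155). Irf9, the DNA-binding subunit of ISGF3, read 9.04 and 9.13 in KO before the ligand, 9.17 and 9.22 after 2 h and 9.17 and 9.19 after 4 h. Its WT values were 9.20 and 9.21 before the ligand, 9.17 and 9.11 after 2 h and 9.20 and 9.14 after 4 h. All of them lay close together, with differences against 0 h of -0.07 to 0.11, and Irf9 was not called.

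The promoters of Irf1 (chr11:53769764-53770063, plus strand) and Stat2 (chr10:128270248-128270547, plus strand) are set side by side because they differ in the letters they hold. Irf1 holds the gamma-activated site TTCNNNGAA, which reads the same on the other strand, 90 bases upstream of the start. Stat2 holds the interferon-stimulated response element in its opposite-strand form TTTCNNTTTC (GAAANNGAAA on the other strand) 222 bases upstream. These are in capitals below.
Irf1 promoter: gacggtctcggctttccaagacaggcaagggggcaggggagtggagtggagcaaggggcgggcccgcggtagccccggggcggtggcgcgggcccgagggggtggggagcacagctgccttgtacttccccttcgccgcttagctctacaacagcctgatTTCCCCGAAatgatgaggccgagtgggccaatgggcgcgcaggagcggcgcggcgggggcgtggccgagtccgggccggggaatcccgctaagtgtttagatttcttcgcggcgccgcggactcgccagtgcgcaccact
Stat2 promoter: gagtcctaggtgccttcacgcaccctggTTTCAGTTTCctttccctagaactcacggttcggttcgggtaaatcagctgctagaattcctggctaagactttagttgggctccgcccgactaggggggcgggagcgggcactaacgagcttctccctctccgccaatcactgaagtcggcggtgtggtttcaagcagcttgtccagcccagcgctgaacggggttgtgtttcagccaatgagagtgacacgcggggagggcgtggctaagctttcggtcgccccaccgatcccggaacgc

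Over the set, 23 of the 31 listed genes have a RefSeq promoter in the table used (29 windows, since 5 genes have several starts). GAAANNGAAA or its reverse stood in 12 of the 29 windows (41.4%), those of 11 genes, against 3.44% of all promoters. The gamma-activated letters stood in 6 windows (20.7%), against 8.30% of all promoters, and the NF-kB letters in 3 (10.3%), against 1.47%. Of the 10 measured genes with the response element, Ifit3, Stat2, Ddx58 and Bst2 were called in a comparison of times, each of them lower, and Ifit1, Oas1a, Oas3, Rsad2, Ifih1 and Trim30a were called in none. Of the other 19 measured members 9 were called in a comparison of times. These 19 include the 8 genes without a promoter in the table (Usp18, Oas2, Parp14, Dhx58, Mx2, Rtp4, Mx1 and Zbp1), which were not searched. Usp18, Parp14 and Mx1 were among the 9 called, so the 19 are not a group known to lack the element. Of all genes tested 38.7% were called in a comparison of times, and the share among genes with the element was near that. Of the 6 genes with the gamma-activated letters, Irf1 and Isg20 rose against 0 h, Ifit2 and Bst2 fell against 0 h, and Oas1a and Ifi35 were not called. Of the 3 with the NF-kB letters, Isg20 rose and Ifit2 fell against 0 h, and Ifnb1 was not called. In the Ifit2 promoter these motifs overlap. A match describes these letters only and does not show that a factor binds there.

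Usp18, Isg20 and Parp14 rose with Irf1. Usp18, the protease that removes ISG15 and also restrains signalling at the receptor chain IFNAR2, read 10.91 and 10.90 in KO before the ligand, 11.41 and 11.40 after 2 h and 11.41 and 11.26 after 4 h. On WT arrays it read 11.18 and 11.08 before the ligand, 11.40 and 11.36 after 2 h and 11.43 and 11.28 after 4 h. The genotypes overlapped at 2 and 4 h, and at 0 h the KO arrays lay below the WT arrays (-0.23, adjusted p = 0.106). Relative to 0 h, at 2 h Usp18 was 1.42-fold higher in KO (0.50 ± 0.070, adjusted p = 8.3e-05) and 1.19-fold higher in WT (0.25 ± 0.070, adjusted p = 0.0178). At 4 h the differences were 0.43 ± 0.070 in KO (adjusted p = 0.000315) and 0.22 ± 0.070 in WT (adjusted p = 0.0378). The WT call at 2 h was lost without WT 0 h array B, WT 2 h array A or WT 2 h array B (adjusted p up to 0.127), and the WT call at 4 h held under 13 of 23 alternatives. That one was lost without KO 2 h array A or B, WT 0 h array B, WT 2 h array A or B, or WT 4 h array A (adjusted p up to 0.305).

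Isg20, an exonuclease that degrades single-stranded RNA, rose the most of the set at 2 h. It read 8.38 and 8.46 in KO before the ligand, 9.12 and 9.26 after 2 h and 9.19 and 8.98 after 4 h. WT levels were 8.42 and 8.45 before the ligand, 9.40 and 9.22 after 2 h and 9.01 and 8.78 after 4 h. No array at 2 or 4 h reached down to the 0 h levels. At 2 h against 0 h Isg20 was 1.71-fold higher in KO (0.77 ± 0.10, adjusted p = 5.5e-05) and 1.83-fold higher in WT (0.87 ± 0.10, adjusted p = 1.4e-05). At 4 h it was 1.58-fold higher in KO (0.66 ± 0.10, adjusted p = 0.000223) and 1.37-fold higher in WT (0.46 ± 0.10, adjusted p = 0.00466, or 0.0808 without WT 4 h array A). In WT it was lower at 4 h than at 2 h (-0.41 ± 0.10, adjusted p = 0.0159), which did not hold without WT 2 h array A or WT 4 h array B (adjusted p up to 0.178).

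Parp14, a mono-ADP-ribosyltransferase of activated immune cells, read 10.43 and 10.59 in KO before the ligand, 10.95 and 11.05 after 2 h and 10.94 and 10.90 after 4 h. In WT it read 10.55 and 10.33 before the ligand, 10.87 and 10.72 after 2 h and 10.82 and 10.77 after 4 h. The arrays at 0 h lay below the later ones in both genotypes. The rise at 2 h was 1.40-fold in KO (0.49 ± 0.084, adjusted p = 0.00061) and 1.28-fold in WT (0.36 ± 0.084, adjusted p = 0.00606), and at 4 h it was 1.32-fold in KO (adjusted p = 0.00257) and 1.28-fold in WT (adjusted p = 0.00669). The other Parp14 probe set gave 0.61 in KO at 2 h (adjusted p = 0.0394) but -0.14 in WT at 4 h (adjusted p = 0.712), so the probe sets disagreed in sign there. The WT calls were lost without WT 0 h array B at both times, without WT 2 h array A at 2 h and without WT 4 h array A at 4 h (adjusted p up to 0.0924).

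With values left on the deposited scale, the median of all genes at 2 h lay at -0.41 in KO and -0.35 in WT, and these 4 genes stayed above 0 without passing the test. Their differences at 2 h were then 0.12 to 0.30 in KO and 0.05 to 0.55 in WT. Of their calls against 0 h at either time, only that of Irf1 in WT at 4 h held on that scale. Among all genes 195 then rose and 3218 fell in KO at 2 h, beside 1004 and 1499 after quantile normalization, and 269 rose and 2022 fell in WT, beside 1079 and 1467.

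**Figure D3:**
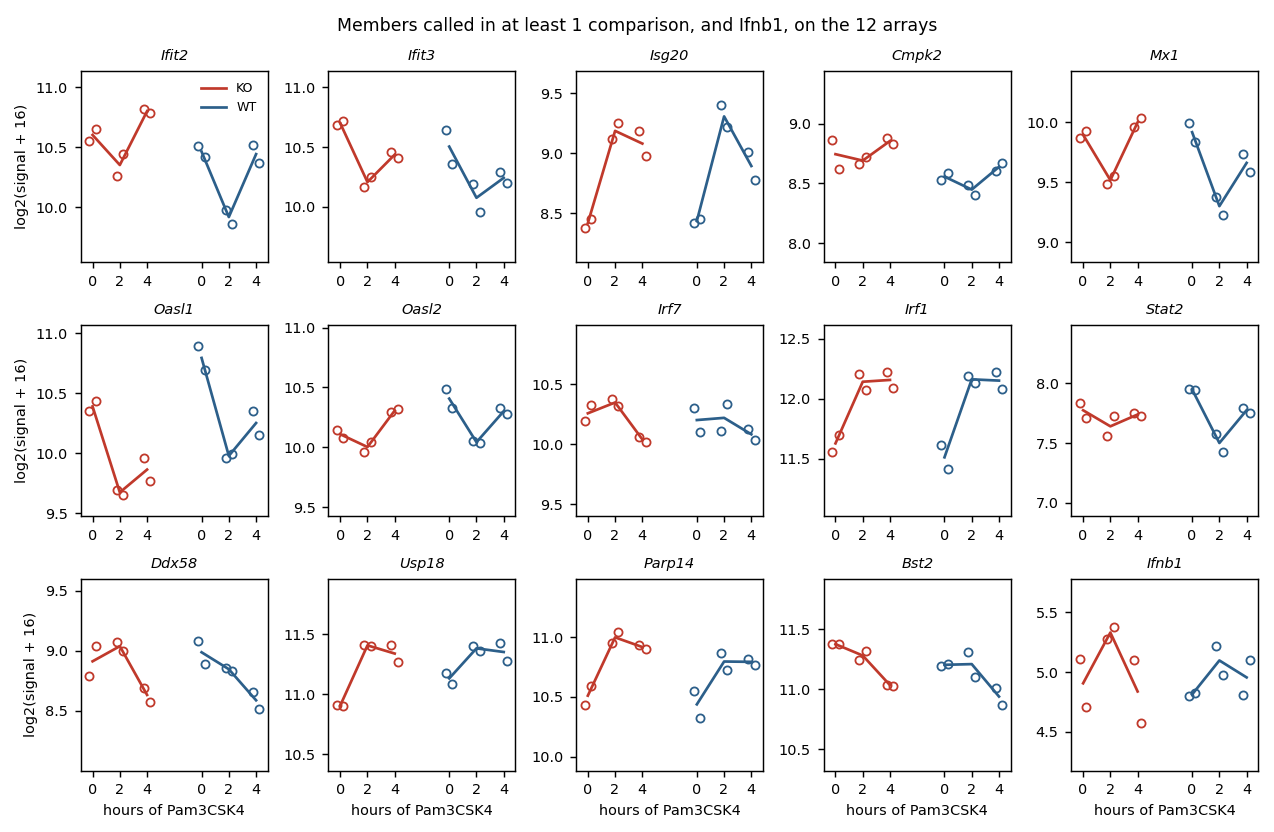
Levels, as log2(signal + 16), on each of the 12 arrays (circles) for the 14 genes called in at least 1 comparison and for Ifnb1, with hours of Pam3CSK4 on the horizontal axis, KO (red) left of WT (blue), and lines through the group means. Irf1, Isg20, Usp18 and Parp14 step up at 2 h, Ifit2, Ifit3, Mx1 and Oasl1 dip at 2 h, and Ifnb1 lies between 4.58 and 5.38.

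The effectors that fell at 2 h belonged to the IFIT, Mx and OAS families. Ifit2, a member of the tetratricopeptide-repeat protein family that binds RNA and restrains viral translation, read 10.55 and 10.65 in KO before the ligand, 10.26 and 10.44 after 2 h and 10.82 and 10.78 after 4 h. WT arrays gave 10.51 and 10.42 before the ligand, 9.98 and 9.86 after 2 h and 10.52 and 10.37 after 4 h. In both genotypes the 2 h arrays were the lowest, and the 4 h arrays overlapped the 0 h arrays in WT and lay above them in KO. Relative to 0 h, at 2 h Ifit2 was 1.19-fold lower in KO (-0.25 ± 0.080, adjusted p = 0.0386) and 1.46-fold lower in WT (-0.55 ± 0.080, adjusted p = 0.000128). Compared with 2 h, at 4 h it was 1.37-fold higher in KO (0.45 ± 0.080, adjusted p = 0.00151) and 1.44-fold higher in WT (0.53 ± 0.080, adjusted p = 0.0005). The KO call at 2 h was lost without KO 0 h array A, KO 0 h array B or KO 2 h array A (adjusted p up to 0.289).

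Ifit3, which in human cells stabilises IFIT1, read 10.68 and 10.72 in KO before the ligand, 10.16 and 10.25 after 2 h and 10.46 and 10.41 after 4 h. The WT values were 10.65 and 10.36 before the ligand, 10.19 and 9.96 after 2 h and 10.29 and 10.20 after 4 h. The 0 h arrays stood above the rest in both genotypes. At 2 h against 0 h it was 1.41-fold lower in KO (-0.49 ± 0.093, adjusted p = 0.00142) and 1.34-fold lower in WT (-0.43 ± 0.093, adjusted p = 0.00377). The WT call was lost without WT 0 h array A or WT 2 h array B (adjusted p up to 0.0733). Ifit1 moved little: its levels ran from 10.55 to 10.67 in KO and from 10.40 to 10.80 in WT, and it was not called.

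The Ifit3 promoter (chr19:34583279-34583578, plus strand) is shown because it holds the response element in 2 places, 156 and 122 bases upstream of the start, in capitals here in the form TTTCNNTTTC.
Ifit3 promoter: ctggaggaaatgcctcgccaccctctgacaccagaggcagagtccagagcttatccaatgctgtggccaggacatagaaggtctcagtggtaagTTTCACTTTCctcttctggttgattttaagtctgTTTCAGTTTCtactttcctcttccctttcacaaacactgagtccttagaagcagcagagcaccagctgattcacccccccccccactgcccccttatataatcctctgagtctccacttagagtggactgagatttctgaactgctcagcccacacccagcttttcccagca

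Mx1, a dynamin-like antiviral GTPase whose allele is disrupted in C57BL/6 mice, read 9.87 and 9.93 in KO before the ligand, 9.48 and 9.55 after 2 h and 9.96 and 10.04 after 4 h. On WT arrays it read 10.00 and 9.84 before the ligand, 9.37 and 9.23 after 2 h and 9.74 and 9.59 after 4 h. The 2 h arrays were the lowest in both genotypes, and at 4 h only the KO arrays reached above the 0 h levels. Relative to 0 h, at 2 h Mx1 was 1.30-fold lower in KO (-0.38 ± 0.083, adjusted p = 0.00424) and 1.53-fold lower in WT (-0.62 ± 0.083, adjusted p = 5.7e-05). At 4 h against 2 h it was 1.40-fold higher in KO (0.48 ± 0.083, adjusted p = 0.00112) and 1.28-fold higher in WT (0.36 ± 0.083, adjusted p = 0.0103, and up to 0.124 without WT 2 h array B or WT 4 h array A). A remaining difference of -0.26 ± 0.083 at 4 h against 0 h in WT (adjusted p = 0.0435) held under 11 of 23 alternatives. It was lost without KO 2 h array A or B, KO 4 h array A or B, WT 0 h array A or WT 4 h array B (adjusted p up to 0.31). Mx2 gave -0.42 ± 0.16 in KO (adjusted p = 0.0763) and -0.14 ± 0.16 in WT at 2 h and was not called.

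Among the OAS family, whose enzymes make oligoadenylates that activate RNase L, the changes lay in the OAS-like genes. Oasl1, known in mice to hold back translation of Irf7 mRNA, read 10.35 and 10.43 in KO before the ligand, 9.69 and 9.65 after 2 h and 9.96 and 9.77 after 4 h. WT levels were 10.89 and 10.70 before the ligand, 9.96 and 9.99 after 2 h and 10.35 and 10.15 after 4 h. All later arrays lay below all 0 h arrays of their genotype. Oasl1 had the largest fall of the 29 genes at 2 h against 0 h, 1.64-fold in KO (-0.72 ± 0.089, adjusted p = 2.56e-05) and 1.76-fold in WT (-0.82 ± 0.089, adjusted p = 5.72e-06). At 4 h it was still 1.44-fold lower in KO (-0.53 ± 0.089, adjusted p = 0.000491) and 1.46-fold lower in WT (-0.54 ± 0.089, adjusted p = 0.000356).

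Oasl2, an active synthetase of the same family in mice, read 10.14 and 10.08 in KO before the ligand, 9.96 and 10.05 after 2 h and 10.29 and 10.32 after 4 h. In WT it read 10.49 and 10.33 before the ligand, 10.05 and 10.04 after 2 h and 10.33 and 10.27 after 4 h. The 2 h arrays were the lowest in both genotypes. The fall at 2 h was called in WT (-0.36 ± 0.071, adjusted p = 0.00164) and not in KO (-0.11 ± 0.071), and the difference between these responses was not called (0.26 ± 0.10, adjusted p = 0.811). Compared with 2 h, at 4 h Oasl2 was higher in KO (0.30 ± 0.071, adjusted p = 0.00997) and in WT (0.26 ± 0.071, adjusted p = 0.0293). The KO call was lost without KO 2 h array A or KO 4 h array B, and the WT call when any WT array at 2 h or 4 h was left out (adjusted p up to 0.0895 in KO and 0.172 in WT). Oas1a, Oas2 and Oas3 gave differences against 0 h of -0.29 to 0.20 and were not called.

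Of the 3 RNA helicase sensors, Ddx58 was called and Ifih1 and Dhx58 were not. Ddx58, which encodes RIG-I, read 8.79 and 9.04 in KO before the ligand, 9.08 and 9.0 after 2 h and 8.69 and 8.57 after 4 h. WT arrays gave 9.09 and 8.89 before the ligand, 8.86 and 8.83 after 2 h and 8.66 and 8.52 after 4 h. The 4 h arrays were the lowest in both genotypes. Ddx58 was lower at 4 h than at 2 h in KO (-0.41 ± 0.10, adjusted p = 0.0133) and lower at 4 h than at 0 h in WT (-0.40 ± 0.10, adjusted p = 0.0102). The KO call was lost without KO 2 h array A or KO 4 h array B, and the WT call without WT 0 h array A or WT 4 h array B (adjusted p up to 0.117 in KO and 0.116 in WT). Its other 2 probe sets gave smaller differences of the same sign, none called. Ifih1 (MDA5), Dhx58 (LGP2) and Zbp1, a sensor of Z-form nucleic acids, were not called, with differences against 0 h between -0.20 and 0.18.

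The promoter of Ddx58 (chr4:40239776-40240075, minus strand), a sensor gene lower at 4 h, holds the response element within the 50 bases from the start on, in capitals here.
Ddx58 promoter: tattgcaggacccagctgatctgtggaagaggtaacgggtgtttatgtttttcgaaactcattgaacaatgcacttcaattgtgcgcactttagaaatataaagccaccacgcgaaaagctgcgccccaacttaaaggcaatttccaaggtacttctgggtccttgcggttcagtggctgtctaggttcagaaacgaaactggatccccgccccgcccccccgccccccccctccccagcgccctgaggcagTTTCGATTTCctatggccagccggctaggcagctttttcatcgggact

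Bst2, or tetherin, holds budding virus particles at the cell surface and in mice marks plasmacytoid dendritic cells. It read 11.38 and 11.38 in KO before the ligand, 11.25 and 11.32 after 2 h and 11.04 and 11.03 after 4 h. The WT values were 11.20 and 11.21 before the ligand, 11.32 and 11.10 after 2 h and 11.01 and 10.87 after 4 h. The 4 h arrays lay below all others of their genotype. At 4 h against 0 h Bst2 was 1.27-fold lower in KO (-0.34 ± 0.073, adjusted p = 0.00348) and 1.20-fold lower in WT (-0.26 ± 0.073, adjusted p = 0.0186). At 4 h against 2 h the difference was -0.25 ± 0.073 in KO (adjusted p = 0.0356), where the sign turned to 0.02 on the deposited scale, and -0.27 ± 0.073 in WT (adjusted p = 0.0263). The KO call at 4 h against 0 h held when single arrays were left out. It was lost with trimmed-mean scaling (adjusted p = 0.0786), on the deposited scale and with eBayes without trend. Over these the adjusted p reached 0.248. The WT call was lost without WT 0 h array A, WT 0 h array B or WT 4 h array B (adjusted p up to 0.201). The KO call at 4 h against 2 h was lost when any of its 4 arrays was left out and the WT call without WT 2 h array A or WT 4 h array B (adjusted p up to 0.192 in KO and 0.284 in WT).

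The 9 plasmacytoid markers on the array, among them Siglech and Ccr9, were all above the filter. Their summed signal ran from 9781 to 9804 in KO and 9249 to 9644 in WT at 0 h, and from 10710 to 10978 in KO and 10451 to 10911 in WT at 4 h, but the markers did not move together. At 4 h against 0 h 3 were higher in each genotype. These were Ly6d (1.11 in KO, 1.08 in WT), Tcf4 (0.52 in KO, 0.70 in WT) and Irf8 (0.43 in KO, 0.44 in WT). Klk1 (-0.30) and Spib (-0.33) were lower in KO, and Ccr9 (-0.23) was lower in WT. Among all genes 7.24% rose and 10.9% fell in KO at that time, and 8.31% and 9.90% in WT. The list median was -0.09 in KO and 0.08 in WT. The part of these cells in the result was not tested. In such bulk RNA fewer cells of a type and less RNA per cell cannot be told apart.

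The Bst2 promoter (chr8:71537423-71537722, minus strand) is shown because 2 motifs meet in it. It holds the response element 130 and 124 bases upstream of the start. The matches overlap and are 1 run of capitals here. The gamma-activated letters, 136 bases upstream, overlap that run and are capitalised only where it covers them.
Bst2 promoter: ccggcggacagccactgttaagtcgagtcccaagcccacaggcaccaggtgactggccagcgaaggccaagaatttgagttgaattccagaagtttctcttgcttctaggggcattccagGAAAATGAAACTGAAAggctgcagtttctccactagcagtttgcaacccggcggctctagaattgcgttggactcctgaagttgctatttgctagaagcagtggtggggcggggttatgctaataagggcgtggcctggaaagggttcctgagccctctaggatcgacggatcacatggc

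Rsad2 and Ifi35 did not pass any test. Rsad2, or viperin, a radical enzyme that makes a chain-terminating nucleotide, read 11.68 and 11.80 in KO before the ligand, 11.76 and 11.87 after 2 h and 11.83 and 11.44 after 4 h. On WT arrays it read 11.78 and 11.32 before the ligand, 11.76 and 11.74 after 2 h and 11.98 and 11.62 after 4 h. The arrays of all times overlapped, and the replicates of WT at 0 h and of KO at 4 h lay far apart. The 95% interval at 2 h against 0 h was -0.23 to 0.37 in KO and -0.10 to 0.49 in WT. Ifi35, a partner of the interferon-induced protein NMI, read 11.91 and 11.78 in KO before the ligand, 11.80 and 11.88 after 2 h and 12.03 and 11.91 after 4 h. WT levels were 11.91 and 11.86 before the ligand, 11.96 and 11.78 after 2 h and 11.88 and 11.85 after 4 h. The interval at 2 h was -0.16 to 0.15 in KO and -0.17 to 0.14 in WT.

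Set beside these is the promoter of a gene that was not called, Rsad2 (chr12:26456403-26456702, minus strand). It holds the response element 120 bases upstream of the start, in capitals here.
Rsad2 promoter: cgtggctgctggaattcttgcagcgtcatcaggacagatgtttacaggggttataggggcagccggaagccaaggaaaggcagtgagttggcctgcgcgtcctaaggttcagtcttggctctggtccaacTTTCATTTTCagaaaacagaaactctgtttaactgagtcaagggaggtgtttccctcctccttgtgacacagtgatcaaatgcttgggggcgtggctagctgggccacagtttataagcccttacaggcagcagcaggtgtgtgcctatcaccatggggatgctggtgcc

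Cmpk2, a mitochondrial nucleotide kinase encoded next to Rsad2, was not called in any comparison of times (differences against 0 h of -0.11 to 0.11). Of the other genes, Rtp4, a receptor chaperone with antiviral activity, gave differences of up to 0.18 in size against 0 h. Xaf1, a pro-apoptotic zinc-finger protein, gave -0.10 to 0.06, and Trim30a, a ubiquitin ligase that in mice restrains TLR signalling, gave -0.18 to 0.32. None of these was called, and the Trim30a replicates at 0 h spread from 10.83 to 11.23 in KO and from 11.14 to 11.62 in WT. The other Trim30a probe set was higher in KO at 4 h than at 0 h (0.35, adjusted p = 0.00492) and than at 2 h (0.34, adjusted p = 0.00925).

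Between 2 and 4 h, 3 of 29 genes rose (Ifit2, Mx1 and Oasl2) in KO and the same 3 in WT, where 6.46% of all genes rose in KO and 5.32% in WT. Bst2, Ddx58 and Irf7 fell in KO and Bst2 and Isg20 in WT, beside 7.25% and 5.75% of all genes. The called share in either direction was 20.7% in KO, beside 13.7% of all genes, and 17.2% in WT, beside 11.1%.

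At 2 h against 0 h, all 4 that rose in KO were the 4 that rose in WT, and the 4 that fell in KO were 4 of the 6 that fell in WT. At 4 h against 0 h the 4 risers were again shared, and the 2 that fell in KO were 2 of the 4 that fell in WT. The same overlap was not counted over all genes, so it is not read as particular to the set. The difference of responses, KO minus WT, was called for 0 of 29 genes at 2 h and 0 at 4 h, where 0.0313% and 0.0469% of all genes were called in either direction. At an unadjusted p under 0.05 there were 4 genes of the set at each time, beside 754 of all 12792 genes at 2 h and 775 at 4 h. At 2 h these were Ifit2, Oasl2, Stat2 and Usp18, with differences of 0.25 to 0.31, and at 4 h Mx1, Oasl2, Usp18 and Dhx58, with 0.21 to 0.37. The smallest adjusted p was 0.801 at 2 h and 0.623 at 4 h.

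KO and WT levels themselves differed for a few members. At 0 h 0 of 29 genes were higher and 2 lower in KO (Oasl1 and Oasl2), with 1.95% higher and 1.35% lower among all genes. At 2 h Ifit2 alone was called, higher in KO, beside 1.01% higher and 1.29% lower of all genes. At 4 h Ifit2 and Mx1 were higher and Oasl1 lower in KO, beside 1.13% and 1.26%. Averaged over the 3 times, Ifit2, Cmpk2 and Mx1 were higher and Oasl1 lower in KO, beside 6.21% and 4.28%. The share of the set called in either direction in the averaged comparison, 13.8%, was near the 10.5% of all genes.

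Among the 5 members called, Oasl1 had the smallest p in the average over the times. Its KO arrays lay below its WT arrays at each time, with differences of -0.40 ± 0.089 at 0 h (adjusted p = 0.0178), -0.30 ± 0.089 at 2 h (adjusted p = 0.0929) and -0.39 ± 0.089 at 4 h (adjusted p = 0.0301). Averaged over the times it was 1.29-fold lower in KO (-0.37 ± 0.051, adjusted p = 0.000197), a call that held under all 23 alternatives. The calls at single times did not: that at 0 h was lost without KO 0 h array A, KO 0 h array B or WT 0 h array A, and that at 4 h without KO 4 h array B or WT 4 h array A (adjusted p up to 0.138 and 0.299). Oasl2 was lower in KO at 0 h (-0.30 ± 0.071, adjusted p = 0.0309), lost without KO 0 h array A, KO 0 h array B or WT 0 h array A (adjusted p up to 0.199). At 4 h its difference was 0.01 ± 0.071.

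The KO minus WT difference of Ifit2 was 0.14 ± 0.080 at 0 h (adjusted p = 0.475), 0.43 ± 0.080 at 2 h (adjusted p = 0.0076) and 0.36 ± 0.080 at 4 h (adjusted p = 0.0275), and 0.31 ± 0.046 averaged (adjusted p = 0.000342). At 2 h this was 10.26 and 10.44 in KO against 9.98 and 9.86 in WT, and the genotypes did not overlap at any time. The call at 2 h was lost without KO 2 h array B or WT 2 h array B, and that at 4 h without KO 4 h array A, KO 4 h array B or WT 4 h array B (adjusted p up to 0.127 and 0.249). Mx1 at 4 h, 9.96 and 10.04 in KO against 9.74 and 9.59 in WT, differed by 0.34 ± 0.083 (adjusted p = 0.0442), a call kept under 6 of 23 alternatives and lost when any single array other than WT 0 h array A or WT 0 h array B was left out (adjusted p up to 0.34). Its average difference of 0.18 ± 0.048 (adjusted p = 0.0264) turned to -0.03 on the deposited scale, where the median of all genes lay at -0.12, and the call was lost when array B of any of the 6 groups was left out (adjusted p up to 0.0936). For Ifit2 the average was 0.10 on the deposited scale (adjusted p = 0.746).

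Cmpk2 was higher in KO averaged over the times (0.22 ± 0.053, adjusted p = 0.0149). Its levels in KO were 8.87 and 8.62 before the ligand, 8.66 and 8.72 after 2 h and 8.88 and 8.83 after 4 h. In WT they were 8.53 and 8.59 before the ligand, 8.49 and 8.41 after 2 h and 8.60 and 8.67 after 4 h. The KO arrays lay above the WT arrays at each time, by little at 0 h. The other Cmpk2 probe set gave -0.03 (adjusted p = 0.883), of opposite sign, and without WT 2 h array B the adjusted p was 0.0504. Ifnb1 differed by 0.07 ± 0.13 (95% interval -0.22 to 0.36) and Irf1 by 0.03, neither called.

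Macrophage and monocyte markers moved with the genotype label. Of 8 listed, 7 were on the array, all of them above the filter, and of these 6 were higher in KO at 0 h, 4 at 2 h, 5 at 4 h and 6 in the average, led by Lyz2 (0.95, adjusted p = 5.93e-09), C1qa and Csf1r. Among all genes 1.95% were higher in KO at 0 h, 1.01% at 2 h, 1.13% at 4 h and 6.21% in the average. The summed signal of the 7 markers ran from 4541 to 4637 in KO and 2662 to 2757 in WT at 0 h. At 2 h it ran from 3235 to 3382 in KO and 2006 to 2176 in WT. At 4 h it ran from 3092 to 3205 in KO and 1764 to 1967 in WT. The sum was lower at 2 and 4 h than at 0 h in both genotypes, but the markers did not all fall. Of the 7, 5 fell and 0 rose at 2 h in KO and 3 fell and 0 rose in WT. Among all genes 11.7% fell and 7.85% rose in KO at that time, and 11.5% and 8.43% in WT. Of the markers 5 fell and 1 rose in KO at 4 h against 0 h, and 4 fell and 1 rose in WT. The all-gene shares were then 10.9% and 7.24% in KO and 9.90% and 8.31% in WT. The marker that rose was Adgre1, which encodes F4/80 (0.52, adjusted p = 0.0148 in KO, and 0.66, adjusted p = 0.00274 in WT). Csf1r fell by 0.60 in KO and 0.65 in WT at 2 h. The part of these cells in the differences of Oasl1, Oasl2, Ifit2, Mx1 and Cmpk2, and in the changes with time, was not tested. Of the 9 plasmacytoid markers 3 were higher in KO on average (Cox6a2 0.79, Spib 0.42 and Irf8 0.17) and 2 lower (Klk1 -0.16 and Ccr9 -0.14), with a list median of -0.01. Among all genes 6.21% were higher and 4.28% lower in that comparison.

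**Figure D4:**
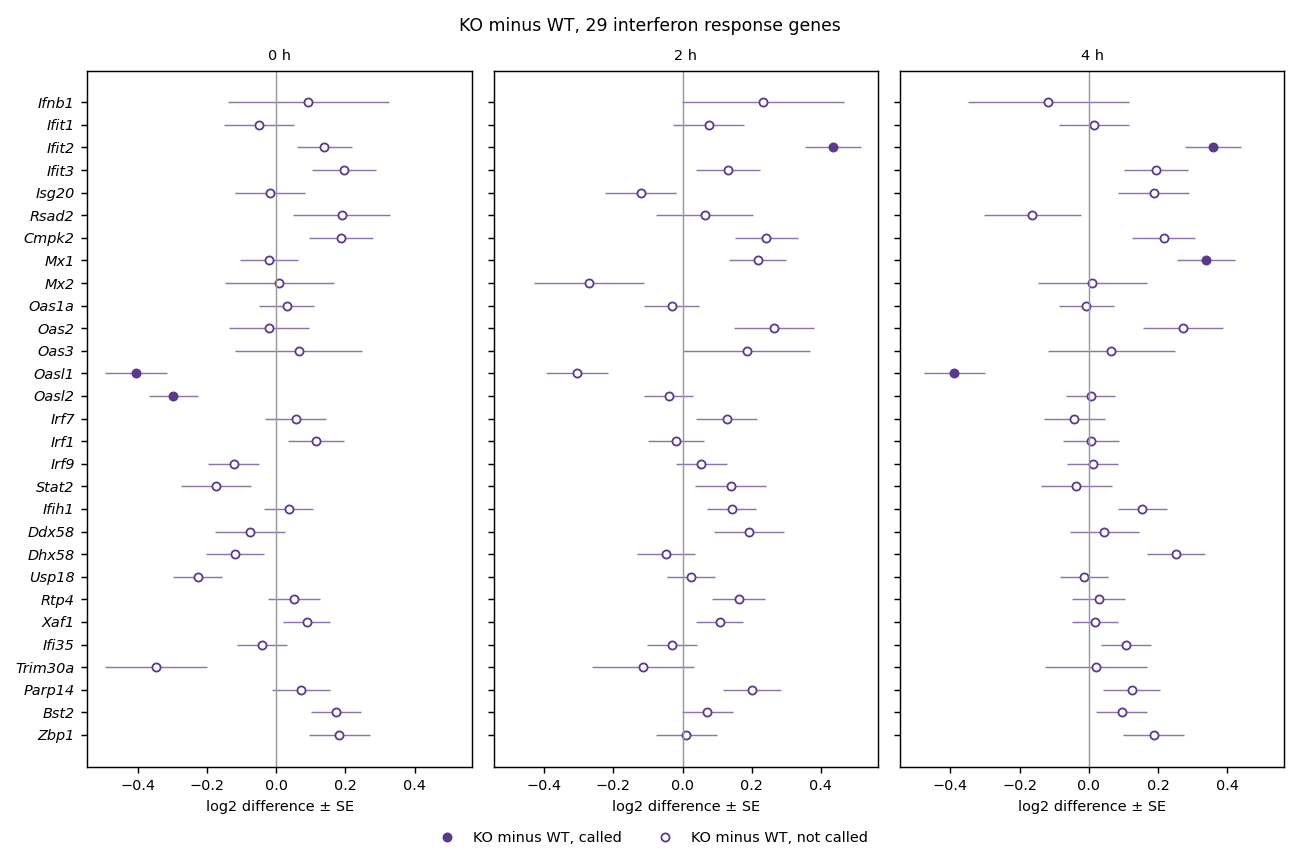
KO minus WT differences in level (log2, ± standard error of the limma fit, 2 arrays per group) of the 29 interferon response genes at 0, 2 and 4 h from left to right. Filled points passed an adjusted p under 0.05: Oasl1 and Oasl2 at 0 h, Ifit2 at 2 h, and Ifit2, Mx1 and Oasl1 at 4 h.

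Genes around the set were read from lists of the same pathway. Of 10 receptor and signalling genes tested, 1 rose and 1 fell at 2 h in KO and 1 rose and 2 fell in WT. Among all genes 7.85% rose and 11.7% fell in KO at that time, and 8.43% and 11.5% in WT. At 4 h 3 rose and 1 fell in each genotype, beside 7.24% and 10.9% of all genes in KO and 8.31% and 9.90% in WT. Ifnar1 and Ifnar2, the receptor chains, were not called (-0.28 to 0.26 against 0 h). Socs3, an inhibitor of cytokine receptors, rose by 1.51 ± 0.11 in KO and 1.34 ± 0.11 in WT at 2 h. Ptpn6, a phosphatase that limits receptor signalling, rose by 0.58 ± 0.068 in KO and 0.53 ± 0.068 in WT at 4 h. Ptpn2 fell by 0.22 in KO and 0.40 in WT at 2 h.

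Of 16 genes that lead to Ifnb1 induction, 6 rose and 0 fell at 2 h in KO and 6 rose and 1 fell in WT. Among all genes 7.85% rose and 11.7% fell in KO at that time, and 8.43% and 11.5% in WT. At 4 h 6 rose and 1 fell in KO, and 7 rose and 1 fell in WT. The all-gene shares were then 7.24% and 10.9% in KO and 8.31% and 9.90% in WT. Mavs was the gene that fell in WT (-0.75 at 2 h, -0.54 at 4 h). In KO it gave -0.39 and -0.45, not called, and Irf5 fell at 4 h (-0.25). Tbk1, the kinase that activates IRF3, rose by 0.63 in KO and 0.60 in WT at 2 h, and its relative Ikbke rose by 1.41 in KO and 1.47 in WT at 4 h. Myd88, the adaptor of TLR2, rose by 0.43 in KO and 0.58 in WT at 2 h, and Cgas, the cytosolic DNA sensor, by 0.71 in KO and 0.63 in WT. The median over these 16 genes at 2 h was 0.06 in KO and 0.08 in WT, beside -0.06 and -0.05 over all genes.

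A further 47 interferon-stimulated genes that are not in the set were counted by the same test. At 2 h 5 rose and 5 fell in KO and 7 rose and 8 fell in WT. Among all genes 7.85% rose and 11.7% fell in KO at that time, and 8.43% and 11.5% in WT. At 4 h 16 rose and 3 fell in KO and 12 rose and 4 fell in WT. The all-gene shares were then 7.24% and 10.9% in KO and 8.31% and 9.90% in WT. The list medians at 4 h were 0.25 in KO and 0.11 in WT beside -0.05 and -0.02 over all genes. Cxcl10, a chemokine induced by both interferon types and NF-kB, was higher at 4 h than at 0 h by 1.60 in KO and 1.58 in WT. Ifi47, a GTPase known as a target of interferon gamma, was higher by 0.89 in KO and 0.91 in WT. Further GTPase genes of this kind, Igtp, Irgm1, Irgm2, Gbp7 and Iigp1, were also called higher at 4 h in both genotypes, and Gbp2 and Gbp3 in KO. The part of Ifng, which also rose, in these changes was not tested. Helz2, a helicase coactivator, was higher at 2 h by 0.84 in KO and 0.88 in WT, while the ubiquitin ligase Trim25, which acts on RIG-I, fell by 1.00 in KO and 1.24 in WT. In the average KO minus WT comparison 8 of the 47 were higher and 2 lower, beside 6.21% and 4.28% of all genes, and the list median was 0.03, as was that of all genes.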

How the data were processed

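RNA of lymph node dendritic cells was measured on 12 one-colour Affymetrix mouse arrays. The authors deposited 1 linear intensity per probe set and array, made with MAS5 per the submitters' processing notes; its version and scaling are not given in the sources used here; detection calls were not used. Precision is limited by the number of arrays. GEO's annotation of the platform pairs 34958 of the 45101 probe sets with a single symbol, 932 with several and 9211 with none. Values were quantile-normalized and used as log2(value + 16), which understates changes of low genes. Each gene was represented by its brightest probe set, and genes under the 40th percentile of probe set means (4.73) were left out.

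A model of 6 group means (6 residual and 9.13 prior degrees of freedom) was fitted by lmFit and moderated by eBayes with trend, using limma 3.58.1 under R 4.3.3, with two-sided tests and Benjamini-Hochberg adjustment per comparison over 12792 genes. The test was tried on simulated data. The p-values measure the spread between these arrays, which may be technical. The members, lists, tests and naming rule were chosen with earlier results of these data known. Every member is accounted for. Values on every array are given for Ifnb1, 4 transcription factors, the 3 members with the brightest probe sets and every called member. Of each other list at most 3 called genes per comparison and direction are given with values, and their values repeated in other comparisons. Promoters are RefSeq's, GRCm38.p6. The Irf1 and Ifnb1 promoters and the gamma-activated letters were added after the values were seen.

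Replicate letters A and B are shared by all groups. They were not taken to pair arrays. As alternatives, values were kept on the deposited scale or scaled to equal trimmed means, and the pseudocount was set to 1 or 64. The filter was dropped or raised to the 60th percentile, a gene's probe sets were averaged, and probe sets ending in _x_at or _s_at were excluded. The fit was also run with eBayes lacking a trend, on the compared groups alone, with a replicate block, and with each array left out in turn.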

Additional observations from a re-analysis of the deposited data

How the results depend on the processing

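The 53 calls of a member in a comparison were recomputed under 23 alternatives, 12 of which left out 1 array each. Of these calls, 10 were kept under all 23, namely Ifit3, Mx1 and Oasl1 at 2 h against 0 h in KO, Ifit2, Mx1, Oasl1 and Oasl2 at 2 h against 0 h in WT, Ifit2 at 4 h against 2 h in KO, Irf1 at 4 h against 0 h in WT, and Oasl1 in the KO minus WT average. The rises of Isg20, Irf1, Usp18 and Parp14 against 0 h in KO, at 2 h and 4 h, were each kept under 22. Each was lost only on the deposited scale, as was the fall of Oasl1 at 4 h against 0 h in both genotypes. In WT the rises of Isg20 and Irf1 at 2 h were lost only there too. The other rises against 0 h in WT, apart from that of Irf1 at 4 h, were kept under 13 to 21. On the deposited scale, where the median of all genes moved by up to -0.41, 13 calls were kept. There 0 members rose and 5 fell at 2 h against 0 h in KO, and 0 rose and 6 fell in WT. At 4 h against 0 h 0 were called in KO and 1, Irf1, rose in WT. At 4 h against 2 h 1 was called in KO and 0 in WT. Between genotypes 0 were called at 0, 2 and 4 h and 2 in the average. Only 2 calls changed sign, both on that scale: Bst2 at 4 h against 2 h in KO (0.0159, all-gene median 0.20) and Mx1 in the KO minus WT average (-0.029, all-gene median -0.12). With eBayes without trend 28 calls were kept, with 2 members at 4 h against 2 h in KO, 3 at 4 h against 0 h and 1 at 4 h against 2 h in WT, 0 between genotypes at each time and 2 in the average. Between genotypes, trimmed-mean scaling left 1 member at 0 h, no filter 0 at 4 h and the mean of probe sets 1 at 4 h, while fitting the compared groups alone gave 0 at 0 h, 2 at 2 h and 1 at 4 h. Leaving out single arrays kept 43 to 49 calls. Members called then ran from 7 to 9 at 2 h and 6 to 7 at 4 h against 0 h in KO, from 7 to 10 and 5 to 8 in WT, from 2 to 6 at 4 h against 2 h in each genotype, and from 0 to 2, 0 to 1 and 0 to 3 between genotypes at 0, 2 and 4 h. The low ends came without WT 4 h array A or B (5), without KO 2 h array A, KO 4 h array B or WT 2 h array A (2), and between genotypes (0) without KO 0 h array A or B, KO 2 h array B, WT 2 h array B or KO 4 h array B. In the average they ran from 2 (without WT 2 h array B) to 8 (without WT 0 h array A). The cause was not tested. Arrays of the same letter did not deviate together (correlations of -0.04 to 0.10 over the 15 pairs of groups). Fits with the replicate block kept all 53 calls and gained 4, giving 7 members at 4 h against 0 h in KO, 9 in WT, 6 at 4 h against 2 h in WT and 5 in the genotype average. No member was called for a difference of responses under any alternative. With 2 arrays per group and no detection calls, a small change of a dim probe set such as that of Ifnb1 could be missed.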

Other observations

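Markers of other cell types were present on these arrays beside the interferon response genes. Of 7 NK cell markers tested, Ncr1 and Gzmb were higher at 4 h than at 0 h in both genotypes, Ncr1 by 0.93 in KO and 0.87 in WT and Gzmb by 0.58 in KO and 0.47 in WT, and Klra8 was lower in WT (-0.86). Of 3 B cell markers tested, Cd79b differed by -1.48 in KO and -1.45 in WT at 4 h against 0 h, and Cd79a by -0.73 in KO, each called. Cd79a in WT (-0.45) was not called. Ms4a1, the other marker, went the other way, by 0.22 in KO and 0.38 in WT, and was not called. The neutrophil marker S100a8, which myeloid cells also express, was higher by 1.67 in KO and 1.66 in WT, and S100a9 by 0.65 in WT. Of 5 T cell markers tested, 0 were called in KO at 4 h against 0 h and 1 in WT (Cd3g, -0.43). Among all genes 7.24% rose and 10.9% fell in KO at that time, and 8.31% and 9.90% in WT. Of 5 stromal markers, 1 (Pdpn) was higher in KO than in WT at each time, by 0.75 on average. The part of these cells in the values above was not tested.

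Of the 15 further probe sets of 11 members, that of Zbp1 was higher at 4 h than at 2 h in KO (0.41, adjusted p = 0.0227 over all 22579 probe sets tested), where the probe set used gave 0.17 and was not called. The other Stat2 probe set was lower in KO than in WT averaged over the times (-0.37, adjusted p = 0.00457), where the probe set used gave -0.02.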
